A study of Homo sapiens with 22 samples.

Results

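CTCF binding was compared between K562 cells exposed to PMA for 6 h (360 min) and cells at 0 h, in every region of the CTCF table on chromosomes 1 to 22 and X: 65346 of its 66168 regions, and of 409446 regions in the tables of all 4 antibodies of the series. K562 is a human leukemia line with erythroid and megakaryocytic features, labelled wild type in every library, and PMA is a phorbol ester that drives it toward a megakaryocyte-like state. The cells received 25 nM PMA for the stated time, underwent 10 min of fixation in 1% formaldehyde and were used 500000 at a time. The antibody-guided cutting assay CUT&RUN then gave 2 CTCF libraries at 0 h, 2 at 6 h and 2 at 72 h, the last used for the error estimate and set beside some results. The libraries carry replicate numbers, but nothing says that they came from separate cultures, so p-values measure only the spread between these libraries, which may be technical.

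CTCF is a zinc-finger protein that binds a long GC-rich motif, stops the loop-extruding cohesin complex (of which Rad21 is a subunit) and thereby anchors chromatin loops and insulates promoters from enhancers. Most of its sites are shared between cell types, while a minority lie at promoters and enhancers beside other factors. AP-1, which contains Jun, is induced by phorbol esters, and H3K27ac marks active promoters and enhancers.

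The change at 6 h had 2 faces: CTCF signal fell at a small set of gene promoters rich in CCAAT boxes, the 5-base element bound by the factor NF-Y, and rose at a larger set of narrow regions away from promoters. Sequences are shown for the 5 promoters with the strongest falls among regions at or above the median signal, because they share these letters. Each is the stretch of 250 bases that ends at the gene's start, from RefSeq (GRCh38.p14), read 5′ to 3′ on the gene's strand, with each CCAAT box in capitals, as CCAAT or as its reverse complement ATTGG.
SP2, chr17:47895986-47896235, plus strand: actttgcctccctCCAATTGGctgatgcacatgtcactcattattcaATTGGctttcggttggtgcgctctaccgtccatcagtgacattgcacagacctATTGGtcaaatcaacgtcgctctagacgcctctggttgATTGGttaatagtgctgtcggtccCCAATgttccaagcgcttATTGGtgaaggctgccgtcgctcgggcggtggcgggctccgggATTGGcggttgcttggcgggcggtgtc
DOLPP1, chr9:129080861-129081110, plus strand: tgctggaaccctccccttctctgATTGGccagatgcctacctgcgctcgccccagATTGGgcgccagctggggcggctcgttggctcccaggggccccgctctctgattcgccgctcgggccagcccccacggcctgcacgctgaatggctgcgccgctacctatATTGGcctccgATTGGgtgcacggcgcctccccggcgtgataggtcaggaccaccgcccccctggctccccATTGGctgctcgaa
KHSRP, chr19:6424812-6425061, minus strand: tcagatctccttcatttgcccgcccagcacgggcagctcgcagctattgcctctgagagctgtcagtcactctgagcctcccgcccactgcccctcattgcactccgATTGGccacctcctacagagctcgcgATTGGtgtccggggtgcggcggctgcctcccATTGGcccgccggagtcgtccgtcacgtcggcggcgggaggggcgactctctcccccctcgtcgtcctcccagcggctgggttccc
WBP1, chr2:74458188-74458437, plus strand: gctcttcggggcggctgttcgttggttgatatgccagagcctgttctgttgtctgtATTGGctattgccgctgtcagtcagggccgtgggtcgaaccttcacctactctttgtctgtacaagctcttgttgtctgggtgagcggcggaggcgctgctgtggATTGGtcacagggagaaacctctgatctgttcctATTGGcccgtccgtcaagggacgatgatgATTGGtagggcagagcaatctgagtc
HNRNPC, chr14:21269443-21269692, minus strand: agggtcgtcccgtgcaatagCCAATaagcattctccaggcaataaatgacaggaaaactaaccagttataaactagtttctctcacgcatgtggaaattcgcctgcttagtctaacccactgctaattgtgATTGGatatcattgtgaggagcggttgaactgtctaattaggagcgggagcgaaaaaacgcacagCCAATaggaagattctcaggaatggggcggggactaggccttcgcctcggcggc
The SP2 stretch holds 8 CCAAT boxes, the DOLPP1 stretch 5, WBP1 4, and KHSRP and HNRNPC 3 each. None of these promoter windows holds the core of the CTCF motif, searched as CCANNAGNNGGC on both strands. For contrast, 2 promoters with strong and stable CTCF regions are shown around a CTCF core, which is in capitals. They were picked for having the core and no CCAAT box, so the contrast in letters was set by the choice. Among promoter windows at stable CTCF regions, 8.77% held the core and 34.2% a CCAAT box.
CCDC59, chr12:82358880-82358909, minus strand: tgctggcttCCACCAGGGGGCtcgcttcgt
WDR38, chr9:124853210-124853239, plus strand: cGCCCTCTAGTGGccgctctgcctgccgtg
The CCDC59 region (chr12:82358384-82359156) had levels of 95.8 and 89.9 CPM (counts scaled to library size) at 0 h and 94.2 and 126 at 6 h. The WDR38 region (chr9:124852737-124853441) had 95.8 and 106 CPM at 0 h and 75.1 and 100 at 6 h.

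The 4 compared libraries held 2553677 to 3982169 counts in regions, and the share of counts on the mitochondrial genome ran from 17.8% to 30.5%, highest in 6 h replicate 1. That library also had the fewest deposited peaks, 18043 against 26792 to 33632, and the lowest TMM scaling factor, 0.783 against 0.965 to 1.01. The 2 libraries at 6 h differed from each other more than those at 0 h, by a chi-square over its degrees of freedom of 4.71 and 2.62. H3K27ac peaks shared by both 0 h libraries lay within 10 kb of 7 of 7 erythroid-megakaryocytic marker genes, including GATA1, KLF1 and TAL1, and of 4 of 7 genes of other blood lineages; within the gene spans alone the counts were 4 and 2. CD3E, PAX5 and MS4A1 had none within 10 kb.

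Of the 65346 regions, 57354 had counts high enough to be tested, and the other 7992 are not described further. By edgeR's quasi-likelihood test over all tested regions, 1533 regions (2.67%) changed at an adjusted p under 0.05. Of these, 1345 (2.35% of tested regions) rose and 188 (0.328%) fell. At an unadjusted p under 0.05 there were 7289 regions. The smallest called change was 0.98 on the log2 scale. In the 1345 regions that rose, the median level was 3.31 and 5.05 CPM in the 0 h libraries and 18.1 and 21.2 CPM at 6 h. Those that fell had medians of 24.5 and 31.8 CPM at 0 h and 10.4 and 8.54 CPM at 6 h. The medians of the log2 fold change were 2.34 and -1.56, against 0.02 over all tested regions. In every called region both libraries of one time lay above both of the other, which was true of 40.4% of all tested regions.

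The calls rest on the 0 h libraries. Without 0 h replicate 1 the count was 15 regions, 1 higher and 14 lower. Without 0 h replicate 2 it was 940, 908 higher and 32 lower, and without 6 h replicate 2 it was 2589, 2096 higher and 493 lower. The rises thus hung mainly on 0 h replicate 1 and the falls on both 0 h libraries. Without 0 h replicate 1 the median log2 fold changes of the 1345 and 188 regions were 2.05 (median SE 0.53, against 0.43 with every library) and -1.72 (0.39 against 0.33). Their direction could not turn, since in each of them the libraries of the times do not overlap. With total counts in place of TMM the median of all regions moved to -0.17, the calls were 1461 higher and 468 lower, and the share of calls that were higher went from 87.7% to 75.7%.

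**Figure D1:**
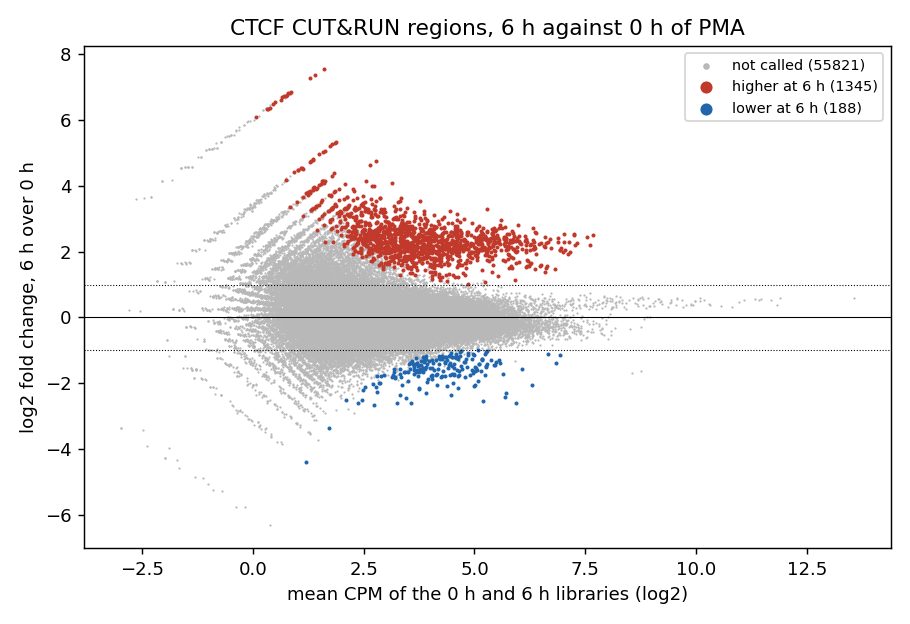
Log2 fold change (6 h over 0 h) against the log2 mean CPM of the 4 compared libraries, with a point for each of the 57354 tested CTCF regions. The 1345 regions called higher have a median of 2.34, the 188 called lower lie mostly at intermediate and high signal, and dotted lines mark a 2-fold change either way.

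Stability was read from the 95% interval of the fold change, since a p that misses the threshold does not show that binding stayed the same. In 15582 regions (27.2%) the whole interval lay within 2-fold either way. The remaining 40239 regions (70.2%) were neither called nor bounded this tightly. How much could be called stable followed the signal: 0.0262% of the lowest quintile of regions by mean CPM, 13.2% of the middle one and 71.4% of the highest. The interval reached a median of 0.581 to either side on the log2 scale in the highest quintile and 1.72 in the lowest. Among the 13607 regions that overlapped a deposited peak in all 4 libraries, 73.8% were stable, 2.04% rose and 0.279% fell. With a bound of 1.5-fold in place of 2-fold, 0.739% of tested regions were stable. The stable share was 10.4% without 0 h replicate 1, 14.2% without 0 h replicate 2 and 14.9% with DESeq2.

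**Figure D2:**
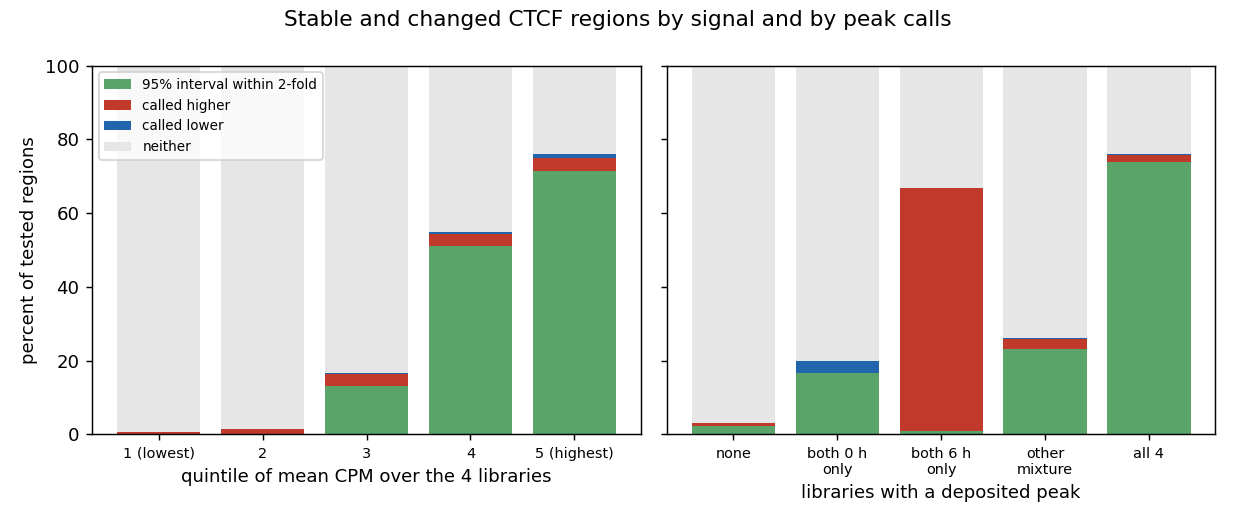
Percent of tested CTCF regions that were stable (95% interval within 2-fold), called higher, called lower or neither, by quintile of mean CPM (left) and by the libraries with an overlapping deposited peak (right). The stable share climbs to 71.4% in the top quintile and is 73.8% with a peak in all 4 libraries.

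The 5 stable sites with the highest level per kb illustrate this. The region over PPM1F, a protein phosphatase gene (chr22:21938008-21938894), had 477 and 512 CPM at 0 h and 424 and 580 CPM at 6 h, a log2 fold change of 0.02 (95% interval -0.77 to 0.81). The region in YPEL1 (chr22:21712784-21713676) had 429 and 483, then 381 and 504 CPM. In ABL1, the tyrosine kinase gene that K562 carries fused to BCR, the region chr9:130866291-130866959 had 232 and 239, then 214 and 249 CPM. The other two, outside gene spans at chr22:22959183-22959805 and chr4:81405753-81406456, had log2 fold changes of 0.25 and -0.32. In all 5 the libraries of both times overlapped, apart from the chr22:22959183-22959805 region, with 240 and 254 CPM at 0 h and 256 and 330 at 6 h, and the chr4 region, with 244 and 274, then 176 and 239. Of the 5, 4 lie in or near the BCR and ABL1 loci, which K562 is known to hold in extra copies, so their levels are not per copy.

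Peak lists, deposited for each library, gave another view. Of 22753 peaks found in both 0 h libraries, 59.5% overlapped a peak found in both 6 h libraries, and of the 15234 shared 6 h peaks 90% overlapped a shared 0 h peak. This asymmetry moved with 6 h replicate 1, the library with the fewest peaks: using the other 6 h library alone, 81.9% of the 0 h peaks were overlapped and 71.2% of its 26537 peaks overlapped a 0 h peak. Of 3112 tested regions with a peak in both 0 h libraries and neither 6 h library, 102 (3.28%) were called lower and 518 (16.6%) were stable. Most were neither, and the median log2 fold change of the class was -0.54, against 0.02 over all tested regions. A peak missing from the 6 h lists thus went with lower counts, but mostly not with a called fall. In the reverse class, a peak in both 6 h libraries and neither 0 h library, 401 of 607 regions (66.1%) were called higher. Peaks and counts come from the same libraries, so neither share is separate support for the calls.

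The 188 regions that fell lay at promoters more often than tested regions as a whole. Of the 184 outside chromosome 8, which the promoter table does not hold, 93 (50.5%) overlapped a promoter window, defined as 250 bases before to 50 after a gene's start, against 10.9% of all tested regions. Read the other way, 1.56% of promoter regions fell (0.328% of all regions) and 0.234% rose (2.35% of all). The median distance to the nearest gene start was 423 bp, against 22375 bp over all regions. At 0 h, 73.4% overlapped a Rad21 peak, 64.9% an H3K27ac peak and 66.5% a Jun peak shared by both libraries, against 26.9%, 20.5% and 21% of all tested regions. Among regions at or above the median CPM, 3.66% of promoter regions fell, against 0.414% of regions elsewhere in gene spans and 0.202% outside them.

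SP2, which encodes a zinc-finger factor of the Sp family, had the strongest signal of the 10 largest falls. Its region (chr17:47895745-47896428, with the start of the divergent transcript SP2-DT) went from 77.5 and 133 CPM to 19.4 and 15.1 CPM, which is -2.60 in log2 terms (SE 0.32, adjusted p 0.00052). By 72 h it stood at 9.45 and 14.2 CPM. KHSRP, a gene for an RNA-binding protein of splicing and mRNA decay (chr19:6424807-6425628), went from 60.2 and 114 to 17.8 and 14.2 CPM (-2.42, SE 0.32). CIC, the gene of the transcriptional repressor capicua (chr19:42268078-42269285), went from 65 and 109 to 19.4 and 15.9 CPM (-2.29, SE 0.31). The 10 largest falls were picked for libraries apart and the largest fold change, and weaker ones passed the signal cut through their 0 h level. The gap between times at SP2, KHSRP and CIC thus follows from the choice, and nothing is read from it. At each of them 0 h replicate 2 was the higher of its pair.

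DOLPP1, whose product acts in the dolichol cycle of protein glycosylation (chr9:129080718-129081335), went from 46.4 and 78.3 to 13.3 and 7.73 CPM. HNRNPC, the gene of an abundant nuclear RNA-binding protein (chr14:21269369-21269953), went from 24.5 and 50.5 to 7.77 and 6.51 CPM. The zinc-finger gene ZBTB3 (chr11:62753904-62754444) went from 18.4 and 32.1 to 5.83 and 4.07 CPM. WBP1 (chr2:74458084-74458519), whose promoter lies within the span of the INO80B-WBP1 readthrough gene, went from 13.5 and 20.2 to 4.21 and 2.03 CPM. The log2 fold changes of these ran from -2.53 to -2.31. Another 2 lay away from promoter windows, within the span of the long noncoding RNA gene MIR4435-2HG (chr2:111454366-111454833) and outside genes at chr17:82367846-82368250, with 0 h levels of 16.6 to 23.8 CPM.

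CCAAT boxes separated the promoters that fell from other CTCF promoters. In all, 11 short motifs were searched on both strands in the 34961 promoter windows after the calls were known, and no test was made. CCAAT was present in 123 of the 134 windows at regions that fell (91.8%), against 34.6% of all windows, 41.5% of the 8148 windows at a tested CTCF region and 34.2% of the 1619 at a stable one. The median number of boxes was 3 in the first group and 0 in the others. The longer form CCAATC, which contains the box, was in 75.4%, against 15.1%, 23.5% and 19.1%. GC content did not run parallel, with a median of 63% in windows at regions that fell and 65% in both other CTCF groups. The GC box CCCGCCC was also more frequent, at 70.1% against 33.1% of all, 52.7% of CTCF and 48.7% of stable windows, while the ETS letters CCGGAAG were less so (14.9%, against 21.9% of CTCF windows). The CTCF core was in 4.48% of windows at regions that fell, 4.91% of CTCF windows, 8.77% of stable ones and 2.41% of all. CCAAT and CTCF core matches overlapped in 28 windows.

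The share that fell climbed with the number of boxes. Among promoter regions with no CCAAT box 4 of 3355 (0.119%) fell, with 1 box 9 of 1483 (0.607%), with 2 boxes 16 of 681 (2.35%), with 3 boxes 28 of 283 (9.89%) and with 4 or more 36 of 174 (20.7%). Counting called and uncalled regions alike, the class medians of log2 fold change went from 0.03 through -0.01, -0.25 and -0.57 to -0.83. In the last class 91.4% of regions lay below 0. The called shares hang on both 0 h libraries: without either of them, 3 of 283 regions with 3 boxes (1.06%) and 6 of 174 with 4 or more (3.45%) were called lower. With any one of the 4 libraries left out the median of the last class was between -1.26 and -0.60, and that of the class without a box was between -0.18 and 0.21. Stable regions thinned out along the same series, from 23.3% to 12.1%, but did not vanish.

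**Figure D3:**
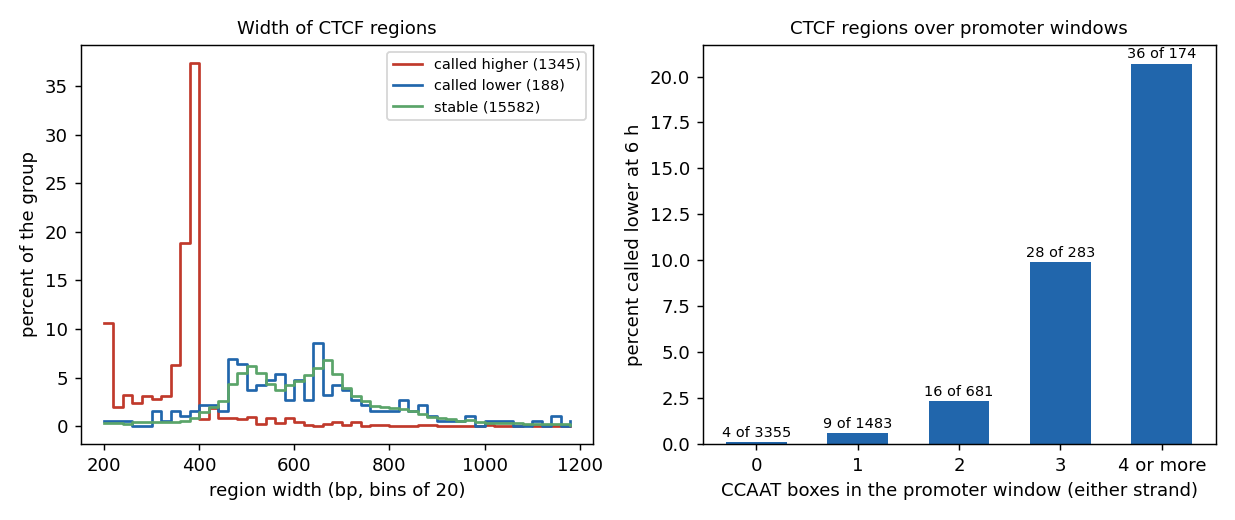
Left, the widths of CTCF regions called higher, called lower or stable, as percent of each group in bins of 20 bp. Right, the percent of CTCF regions over promoter windows called lower at 6 h, by the number of CCAAT boxes in the window, with counts above the bars. Regions called higher pile up just below 400 bp, and the share called lower climbs from 0.119% with no box to 20.7% with 4 or more.

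In their own libraries, Jun and H3K27ac also fell at most of the regions that overlapped these, and Rad21 at few of them. Of 153 tested Jun regions overlapping a CTCF region that fell, 105 (68.6%) fell from 0 to 6 h, against 12.2% of all Jun regions, and 4 rose. Of 154 H3K27ac regions, 103 (66.9%) fell, against 26.3% of all, with a median log2 fold change of -0.49. Among all regions over promoter windows, 26.4% of Jun and 49.6% of H3K27ac regions fell. With total counts for the CTCF and H3K27ac tables the H3K27ac share was 39.3%, against 16.5% of all. Over the SP2 region the Jun level went from 74.6 ± 7.87 to 20.7 ± 3.97 CPM (SD, n = 2 each; log2 fold change -1.84, adjusted p 1.65e-06) and H3K27ac from 113 ± 5.49 to 78.8 ± 9.52 CPM (-0.51, adjusted p 0.000275). At CIC the Jun level went from 289 ± 7.44 to 77.5 ± 0.183 CPM. Rad21, measured at 0 and 72 h only, was called lower in 23 of 181 overlapping regions (12.7%, against 7.91% of all). The series along box number was also seen with Jun, where 20.8% of promoter regions without a box and 69.2% of those with 4 or more fell at 6 h, and less with H3K27ac (47.2% and 65.4%). With Rad21 at 72 h the shares were 3.46% and 1.05%. The part of this common fall in the CTCF result was not tested. At 72 h, 119 of the 188 CTCF regions were also called lower against the same 0 h libraries (2.76% of all tested regions were), with median levels of 11.1 and 11.3 CPM.

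The 1345 regions that rose had nearly the opposite setting. Only 14 of the 1278 outside chromosome 8 (1.1%) overlapped a promoter window, 57.7% lay elsewhere in gene spans and 527 (41.2%) outside them, and the median distance to a gene start was 42180 bp. Just 1.93% overlapped a 0 h H3K27ac peak and 5.43% a 6 h one, against 20.5% and 19.7% of all tested regions. Jun peaks overlapped 32% at 0 h and 42.3% at 6 h, against 21% and 15.5%. The share that rose declined with gene density, from 3.6% of regions with no gene start within 100 kb to 0.869% with more than 10, while the share that fell went from 0.0958% to 1.3%. Chromosomes 4 (4.86%) and X (4.85%) had the highest shares that rose and chromosome 19 the lowest (1%). Chromosome 19 had in turn the highest share that fell, 1.7%.

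**Figure D4:**
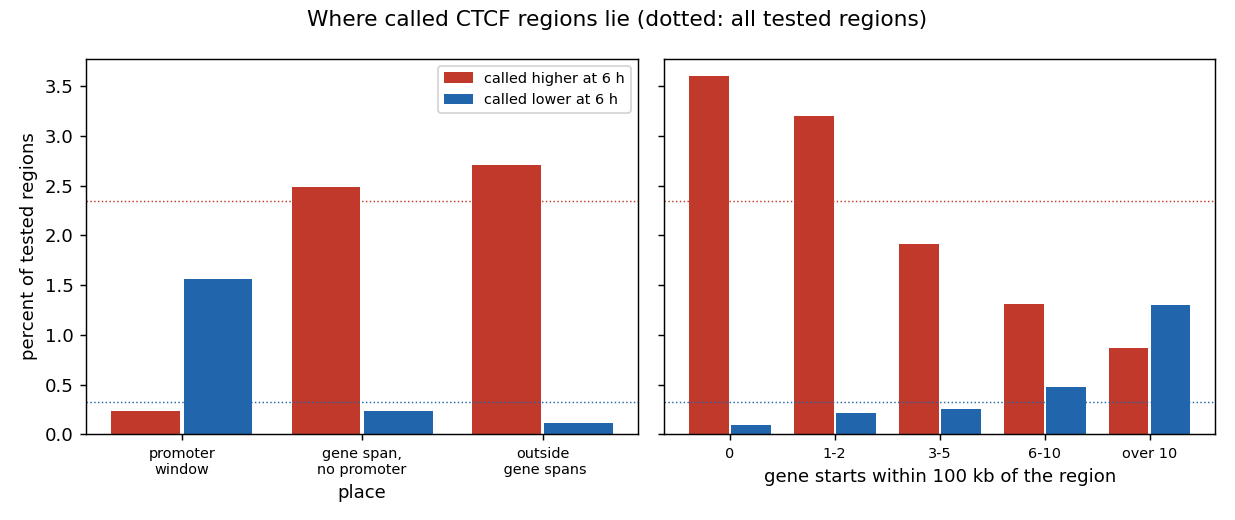
Percent of tested CTCF regions called higher or lower at 6 h by place (left) and by the number of gene starts within 100 kb (right), with chromosome 8 left out and dotted lines for all tested regions (2.35% and 0.328%). Rises are rare in promoter windows and commonest where no gene start is near, and falls show the opposite order.

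Most regions that rose had almost the same width. Widths of 381 and 380 bp were the commonest, with 303 and 177 of the 1345 regions, and 746 (55.5%) were from 360 to 385 bp wide, a class set after the widths were seen. That class held 5.24% of all tested regions, 1.6% of those that fell and 0.706% of stable ones. Of all 3006 tested regions in the class 24.8% rose, against 1.1% of regions of other widths, and the median log2 fold changes were 0.66 and 0.00. At or above the median CPM, 1081 regions were in the class and 612 of them rose. That cut uses the 6 h level too, and regions that rose often pass it through that level, so nothing is read from the higher share. Without 0 h replicate 1 only 1 of the 1081 was called. Another 102 regions that rose were exactly 200 bp wide, a width shared by 3444 tested regions. Widths come from the authors' region set, so region width and the way regions were defined cannot be told apart here.

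The 10 largest rises among regions at or above the median CPM started from almost no signal. They passed that cut through their 6 h level and were picked for libraries apart and the largest fold change. Their low 0 h level and the gap between times thus follow from the choice, and nothing is read from them. In the intergenic region chr14:82323727-82324103 the level went from 1.27 and 1.80 CPM at 0 h to 19.1 and 18.7 CPM at 6 h, or 3.63 in log2 terms (SE 0.45, adjusted p 0.00052). The region nearest the start of SPOCK3, a proteoglycan gene, at a distance of 382880 bp (chr4:167617197-167617554), went from 1.53 and 2.89 to 20.7 and 29.7 CPM. In SCMH1, a Polycomb group gene (chr1:41065494-41065864), it went from 1.02 and 2.17 to 16.2 and 19.1 CPM, and in the phosphatase gene PPM1A (chr14:60297685-60298064) from 1.02 and 2.17 to 12.6 and 24 CPM. In these regions the 6 h libraries lay at least several-fold above both 0 h libraries. At 72 h the levels were 1.61 and 3.37 CPM in SCMH1 and 3.69 and 5.48 CPM near SPOCK3. Since the regions were picked for a high 6 h level, a lower level at 72 h partly follows from the choice. The chr14:82323727-82324103 region, with 5.99 and 6.18 CPM at 72 h, was still called higher than at 0 h (log2 fold change 2.00, adjusted p 0.023). PPM1A had 2.53 and 8.29 CPM at 72 h (1.89, adjusted p 0.0744).

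The others lay in LINGO2 (chr9:28988026-28988273), ZNF662 (chr3:42916100-42916480), MEIKIN (chr5:131909601-131909957) and the noncoding gene LOC124903133 (chr13:22473437-22473814), 6513 bp from the start of the meiotic methyltransferase gene PRDM9 (chr5:23500963-23501228), and at chr10:47399000-47399286. Their 0 h levels were 0 to 2.89 CPM and their 6 h levels 9.06 to 24.8 CPM. None of the 10 overlapped an H3K27ac or Jun peak at either time or a Rad21 peak at 0 h. At 72 h a Rad21 peak overlapped those in ZNF662, MEIKIN, SCMH1, PPM1A and LOC124903133 and at chr14:82323727-82324103. The 10 do not stand for the 1345 regions that rose, of which 42.3% overlapped a 6 h Jun peak and 30.4% a 0 h Rad21 peak. Over all tested regions these shares were 15.5% and 26.9%. Log2 fold changes ran from 3.31 to 4.10, the last in LINGO2, where 0 h replicate 1 had no count, so that this value depends on the fit's prior count.

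**Figure D5:**
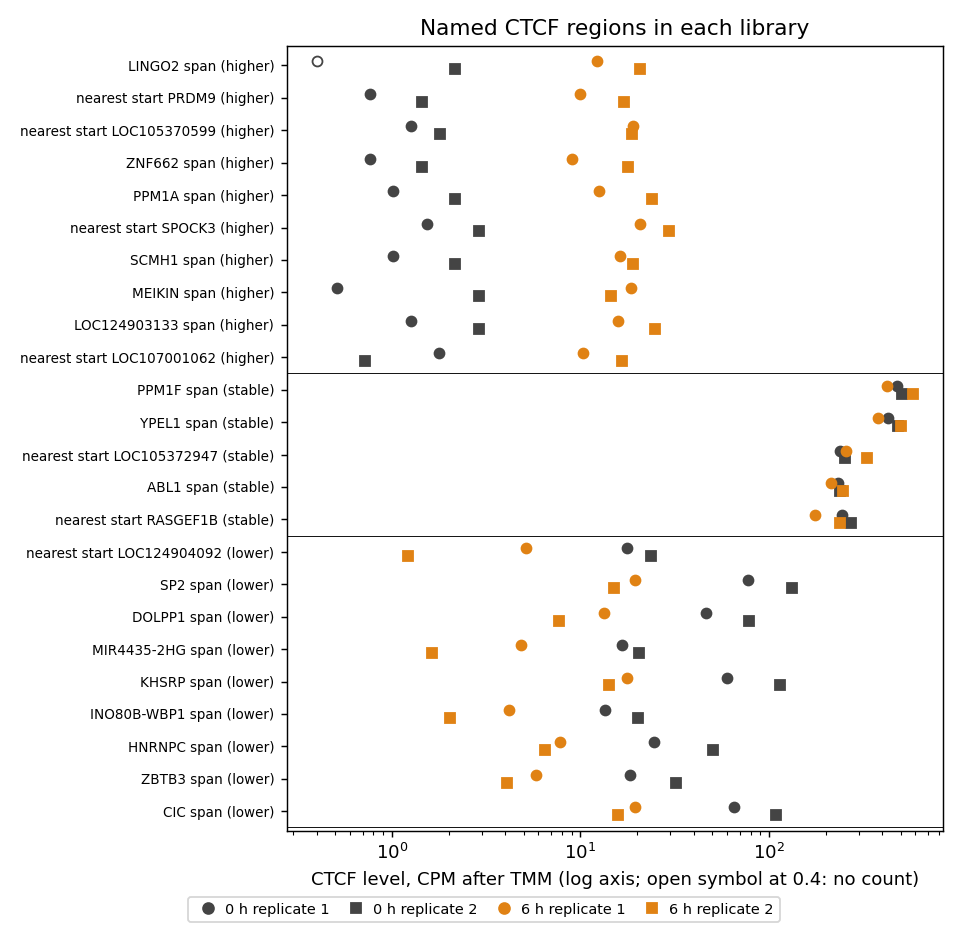
CTCF level (CPM after TMM, log axis) in each 0 h (grey) and 6 h (orange) library for the 10 largest rises, the 5 strongest stable regions and 9 of the 10 largest falls, named by gene span or nearest gene start. The times do not overlap in the upper and lower blocks, which were chosen that way, while the stable block lies between 176 and 580 CPM.

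Rises at promoters were few but some were strong. The region by PTPRH, a receptor tyrosine phosphatase gene (chr19:55209081-55209461), went from 33.1 and 43.3 to 218 and 221 CPM (log2 fold change 2.53, SE 0.33, adjusted p 0.00052), and Jun there rose from 48 ± 13.8 to 94.8 ± 24.9 CPM (SD, n = 2; 0.98, adjusted p 0.00298) while H3K27ac stood at 8.15 ± 1.73 and 8.47 ± 0.492 CPM. By CST3, which encodes the protease inhibitor cystatin C (chr20:23637987-23638367), CTCF went from 2.29 and 5.05 to 24.6 and 26.4 CPM. At the start of UQCR10, a gene of respiratory complex III (chr22:29767115-29767578), it went from 12.2 and 25.3 to 72.5 and 57.8 CPM while H3K27ac fell from 75.5 ± 1.65 to 38.6 ± 0.876 CPM (-0.97, adjusted p 1.86e-08). The region at the promoter of LOC105375220, within the span of CRHR2, went from 8.16 and 24.5 to 53.7 and 63.9 CPM. That at the promoter of LOC107986825, within the span of SEM1, went from 1.78 and 2.17 to 13.9 and 15.5 CPM. None of the 17 promoter windows at regions that rose held the CTCF core, and 8 (47.1%) held a CCAAT box. Among windows at a tested CTCF region the shares were 4.91% and 41.5%, and 17 windows are too few to set apart from these.

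At 72 h the CTCF medians of these regions lay between those at 0 h and 6 h, and Rad21 was higher than at 0 h. The regions were called for a high 6 h level, so a lower CTCF median at 72 h partly follows from that choice. Median CTCF levels of the 1345 regions at 72 h were 5.07 and 8.29 CPM, the median log2 fold change from 0 h was 0.70, and 204 were called higher (4.05% of all tested regions were), the 2 comparisons sharing the 0 h libraries. In Rad21 libraries, 1049 of the 1199 tested regions that overlapped them rose from 0 to 72 h (87.5%, against 15.4% of all Rad21 regions), and the median over the overlapping regions went from 4.4 and 5.49 CPM at 0 h to 12.7 and 17.7 CPM. Rad21 peaks in both libraries of a time overlapped 30.4% of the regions at 0 h and 71.1% at 72 h. At stable CTCF regions 2.56% of overlapping Rad21 regions rose. Jun rose at 6 h in 217 of 908 overlapping regions (23.9%, against 13.1% of all), with medians of 5.98 and 6.31 CPM at 0 h, 10.2 and 8.76 CPM at 6 h and 1.76 and 1.44 CPM at 72 h. H3K27ac regions overlapped only 204 of the 1345, and 131 of those 209 H3K27ac regions (62.7%, against 32.3% of all) rose from medians near 1.1 CPM to 3.78 and 3 CPM.

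Regions around genes of the lineage, of CTCF and of the early response held 0 to 2 calls per list, too few to set apart from all tested regions, of which 2.35% rose, 0.328% fell and 27.2% were stable. The lists held 93 genes, of which 86 had a tested region within 10 kb of their span. Taking for each gene the region with the highest level gave 83 distinct regions, of which 52 were stable, 1 rose, 1 fell and 29 were neither. At imprinted and insulated loci, 1 of 62 regions rose (1.61%, against 2.35% of all), none fell and 18 were stable (29%, against 27.2% of all). In the H19 and IGF2 domain CTCF insulates the enhancers on 1 parental allele. The strongest region by IGF2 (chr11:2151356-2152379) had 95.3 and 95.6 CPM at 0 h and 68.6 and 111 CPM at 6 h (-0.09, 95% interval -0.70 to 0.51). The strongest region by H19 (chr11:2001997-2003015) had 39.5 and 49.4, then 29.8 and 36.6 CPM (-0.42, SE 0.27). Both regions were stable, and whether either holds the insulator was not tested. The strongest HOXA13 and HOXD13 regions gave -0.15 and -0.40, both stable. The exception was a weaker region inside the gamma protocadherin cluster (chr5:141430080-141430818), whose alternative promoters CTCF helps to choose: it went from 6.63 and 6.5 to 15.9 and 22.4 CPM (1.53, SE 0.32, adjusted p 0.00991).

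Among genes of CTCF and the cohesin machinery, 1 of 61 regions rose and 1 fell (1.64% each, against 2.35% and 0.328% of all), and 23 were stable (37.7%, against 27.2% of all). The strongest region at CTCF itself had 58.1 and 46.2, then 48.9 and 55.7 CPM (0.00, 95% interval -0.54 to 0.54), while a narrow region inside the gene (chr16:67639013-67639393) went from 4.84 and 3.61 to 12.9 and 15.1 CPM. The promoter of ZNF143, a factor found at promoter-bound loop anchors (chr11:9460663-9461305), fell from 24.5 and 35.7 to 11.7 and 5.29 CPM (-1.78, SE 0.36, adjusted p 0.00671), with Jun from 66.6 ± 0.407 to 20.7 ± 1.18 CPM (SD, n = 2). NIPBL, which loads cohesin, and PDS5A, which regulates its release, had stable regions (-0.38 and -0.19).

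Of 43 regions at erythroid genes 1 rose and 1 fell (2.33% each, against 2.35% and 0.328% of all), and 13 were stable (30.2%, against 27.2% of all). ALAS2, whose product starts heme synthesis in red cell precursors, held the rise: a region of 380 bp inside the gene (chrX:55025803-55026182) went from 44.6 and 70.4 CPM to 202 and 233 CPM (1.92, SE 0.36, adjusted p 0.00419) and back to 46.3 and 98.6 CPM at 72 h. Jun in that region rose from 51.1 ± 5.1 to 86.1 ± 15.7 CPM (SD, n = 2; 0.75, adjusted p 0.00773), and H3K27ac was low at both times, 2.13 ± 0.197 and 3.63 ± 2.49 CPM. Rad21 rose there from 64.7 ± 1.66 at 0 h to 169 ± 37.6 CPM at 72 h (1.38, adjusted p 0.000198). A region near the start of GYPB, which encodes the red cell surface protein glycophorin B (chr4:144018250-144018890), fell from 19.1 and 19.8 to 4.86 and 9.36 CPM (-1.48, SE 0.36, adjusted p 0.0309), and H3K27ac there fell from 96.3 ± 0.282 to 27.6 ± 4.08 CPM (-1.80, adjusted p 1.41e-12). Counts in near-identical gene copies such as this one are uncertain. The strongest regions by KLF1, NFE2, LMO2 and the alpha-globin genes were stable. Those by GATA1, TAL1, HBG1, TFRC and SLC4A1 were neither called nor stable.

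Of 67 regions at megakaryocyte and platelet genes, the fate of the differentiating cells, none rose or fell, against 2.35% and 0.328% of all regions. In this list 15 were stable (22.4%, against 27.2% of all), with a median log2 fold change of 0.08 against 0.02. GP1BB, part of the platelet receptor for von Willebrand factor, had 102 and 109, then 73.8 and 111 CPM (-0.19, 95% interval -0.80 to 0.42), and the MEIS1 region gave 0.08. ITGB3, the integrin beta chain of platelets, had 52.5 and 54.8 CPM at 0 h and 32.7 and 35.4 CPM at 6 h, groups that did not overlap, but did not pass the test (-0.66, adjusted p 0.241). Of 57 regions at AP-1 and early response genes none rose, 1 fell (1.75%, against 0.328% of all) and 15 were stable (26.3%, against 27.2% of all). That region, 10819 bp from the start of FOSB and over the transfer RNA gene TRU-TCA1-1 (chr19:45478224-45479408), went from 169 and 167 to 69.6 and 83.4 CPM (-1.13, SE 0.28, adjusted p 0.0366), and stood at 74.2 and 83.6 CPM at 72 h. H3K27ac there rose from 32.2 ± 0.658 to 42.1 ± 2.02 CPM (SD, n = 2; 0.39, adjusted p 0.00364), and Jun had 36.2 ± 2.28 and 47.6 ± 2.84 CPM (adjusted p 0.124). The strongest regions at JUNB, FOSL1, ATF3, DUSP1 and MYC, genes that respond within hours to phorbol ester, were stable. Their log2 fold changes lay between -0.26 and 0.26.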

How the data were processed

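CUT&RUN counts per region were used as the authors deposited them: whole-number counts over 1 region set per antibody. Per the submitters' processing notes the tools included Trim Galore 0.4.3, BWA 0.7.17, SAMtools 1.9, MACS2 and bedtools 2.26; the notes list hg19 and hg38, and contig names fit hg38, to which coordinates refer. Region starts matched the peak files' zero-based starts, so 1 was added. The deposited peaks, called per library, carry −log10 q-values, used only for a stricter threshold. The authors' own log2 fold changes in the deposited table had the same sign in all 1345 and 188 called regions. They concern the same libraries, which do not overlap between times in these regions, so this is no separate support. The authors' class labels were not used, since all 33 regions labelled downEarly have a positive 6 h log2 fold change there. Of the 1533 called regions 902 carry the label static, and 26 of those called lower carry upEarly or upLate.

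edgeR 4.0.16 (filterByExpr, TMM, quasi-likelihood test, Benjamini-Hochberg over the whole table) was fitted on all 6 CTCF libraries without a replicate block, and likewise on each other antibody's table; CPM is scaled by library size after TMM. A stable region has its 95% interval within 2-fold. Overlap means at least 1 bp, and levels are CPM per region. Regions named are the 10 largest rises and falls among called regions at or above the median CPM (7.28) with libraries apart, the 5 strongest stable ones per kb, the 5 largest at promoters each way and the strongest per listed gene; other listed-gene regions are named because they were called. Of the 10 largest falls, 1 is not reported here. CCAAT boxes are shown in place of CTCF cores, which the named promoters lack. Alternatives were DESeq2 1.42.0, other scalings and filters, and each library left out. On simulated data (58156 regions, 200 changed 4-fold), 125 were recovered in the right direction and 7.41% of calls were false. No changed region was called stable, which a 4-fold change against a 2-fold bound nearly fixed, and 35.5% of unchanged ones were. The simulated libraries shared 1 trend of spread, while the real ones differed more at 6 h than at 0 h (4.71 and 2.62). The 7.41% is thus no measure of false calls in the real data. The members and lists were chosen with earlier results of these data known. The log2 differences between replicates 1 and 2 correlated weakly across times (0.0888 to 0.132), and a weak pairing by replicate number is not excluded. Intervals reflect the spread between libraries.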

Additional observations from a re-analysis of the deposited data

How the results depend on the processing

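The count of 1533 called regions became 491 with a mean count of at least 50, 902 at an adjusted p under 0.01, and 15 to 2589 with 1 library left out, lowest without 0 h replicate 1. The share of calls that were higher, 87.7%, was 75.7% with total counts, 91.7% with DESeq2, 90.8% with TMM from regions with peaks in all 6 libraries, 91.7% with the 4 libraries alone, 83.1% with the replicate block (1898 calls), and 6.67% to 96.6% with 1 library left out, the lowest being 1 of 15 calls. The stable share, 27.2%, was 17.8% with total counts, 14.9% with DESeq2, 28% with peak-based TMM, 28.6% with loess offsets, 28.2% with chromosomes 1 to 22 and X only, 24.2% without a filter, 72.9% with a mean count of at least 50, 30.2% with the 4 libraries alone, 30.3% with the replicate block, 10.4% to 22.6% with 1 library left out, and 0.739% with a 1.5-fold bound. Shared 0 h peaks, 59.5%, were 51.8% with −log10 q of at least 10, 45.9% with 50% overlap and 42.5% to 81.9% with 1 library left out; shared 6 h peaks, 90%, were 86.8%, 88.7% and 71.2% to 93.7%. With total counts, H3K27ac was higher in 78.9% and lower in 39.3%, Jun higher in 36.1% and lower in 54.3%, and Rad21 higher in 77.7% and lower in 20.1% of the regions compared above; with 50% overlap Jun was lower in 77.7%. Leaving out 1 library gave 50.5% to 56.6% and 52% to 78.6% for H3K27ac, 19.5% to 100% and 52.8% to 100% for Jun, and 64.2% to 100% and 0% to 20% for Rad21; the extremes of 100% and 0% rest on 1 to 14 regions. The H3K27ac value at regions that rose could not be given without 0 h replicate 1, where the 1 called region overlaps none. Of 113 named regions none changed sign at a called value; 22 of the 27 called ones lost the call without 0 h replicate 1. The causes were not tested. Nothing says that equal replicate numbers pair the libraries, and the block is given only as an alternative. The CCAAT and width values with libraries left out were added after the data were seen. Intervals were widest in the weakest regions.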
